A study of Homo sapiens with 10 samples.

Results

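The 10 genes described here encode the typical MAP kinase phosphatases, the branch of the dual-specificity phosphatase (DUSP) family that binds and switches off MAP kinases. They were chosen by name: DUSP1, DUSP2, DUSP4, DUSP5, DUSP6, DUSP7, DUSP8, DUSP9, DUSP10 and DUSP16, matched by Ensembl identifier. All 10 were found among the 20327 genes of the deposited tables. MAP kinases (ERK, JNK and p38) are activated by phosphorylation of a threonine and a tyrosine, and these phosphatases remove both phosphates. Several of the genes are themselves switched on by MAP kinase signalling, so they act as negative feedback on the pathway that induces them. DUSP1, DUSP2, DUSP4 and DUSP5 encode nuclear enzymes, DUSP6, DUSP7 and DUSP9 encode cytoplasmic enzymes that prefer ERK, and DUSP8, DUSP10 and DUSP16 encode enzymes that prefer JNK and p38.

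RNA was sequenced from wild-type hTERT RPE-1 cells, a human retinal pigment epithelial line immortalised with telomerase, in 10 libraries from 2 experiments. All cells had been held for 48 h in medium with 0.1% serum. The first experiment compared 30 min of DMSO, the vehicle, with 30 min of merbarone at 200 µM (3 libraries each); the second compared untreated cells with 2 h of merbarone at 200 µM (2 libraries each), so its control received no vehicle. Merbarone is a catalytic inhibitor of topoisomerase II, the enzyme that passes one DNA duplex through another, and the series concerns DNA supercoiling and the pausing of RNA polymerase II near promoters. The labels do not say whether replicates came from separate cultures, so the p-values measure the spread between these libraries, which may be technical.

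Summed over genes, the reads recovered from RPKM numbered 26633780 to 38225538 per library in the 30 min experiment. In the 2 h experiment they numbered 11956652 to 13691014. Same-numbered libraries of the 30 min experiment deviated together from their group means, and replicate 1 of DMSO and replicate 1 of merbarone stood apart together for several members. The epithelial keratins KRT7, KRT8 and KRT18 were the 3 of 6 epithelial markers at a mean of at least 1 RPKM in every group. BEST1, OTX2 and PMEL were the 3 of 12 pigment epithelium markers at that level, and RGR, a defining marker, was at 0 in every library. OTX2, a transcription factor of the pigment epithelium, fell at 2 h from 4.48 ± 0.182 to 3.38 ± 0.0681 RPKM (SD, n = 2; log2 fold change -0.32, limma adjusted p 0.0349), and its part in the results on the members was not tested. Summed levels of the 7 blood and endothelial markers in the tables were 0.0265 to 0.139 RPKM per library. The summed epithelial markers ran from 17.6 to 26.1 RPKM in the 30 min experiment and from 64.8 to 79.2 RPKM in the 2 h experiment, so each treatment is compared only with the control of its own experiment.

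The start sites of the members that moved most are shown first, because the genes with the largest rises at 2 h differ in what lies before them. The table of RefSeq promoters (GRCh38.p14) held 8 of the 10 members in 10 entries, with no entry for DUSP4 or DUSP5. For DUSP1, DUSP8, DUSP10 (the first of its 2 entries) and DUSP6, the 250 bases that end just before the annotated start are printed 5′ to 3′ on the strand of the gene. Capitals mark the cyclic AMP response element (CRE, TGACGTCA), its half-site (TGACG on either strand) and the letters TATAAA.
DUSP1, chr5:172771196-172771445, minus strand: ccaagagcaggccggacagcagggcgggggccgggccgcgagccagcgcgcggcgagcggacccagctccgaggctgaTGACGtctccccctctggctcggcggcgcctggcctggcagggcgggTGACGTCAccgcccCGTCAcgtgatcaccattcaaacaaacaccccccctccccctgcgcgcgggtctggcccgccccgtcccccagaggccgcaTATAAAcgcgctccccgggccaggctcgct
DUSP8, chr11:1572272-1572521, minus strand: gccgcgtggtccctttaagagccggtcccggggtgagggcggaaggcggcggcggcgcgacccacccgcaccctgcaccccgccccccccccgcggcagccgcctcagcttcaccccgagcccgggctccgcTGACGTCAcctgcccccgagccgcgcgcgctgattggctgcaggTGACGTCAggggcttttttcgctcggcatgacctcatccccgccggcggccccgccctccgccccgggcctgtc
DUSP10, chr1:221742090-221742339, minus strand: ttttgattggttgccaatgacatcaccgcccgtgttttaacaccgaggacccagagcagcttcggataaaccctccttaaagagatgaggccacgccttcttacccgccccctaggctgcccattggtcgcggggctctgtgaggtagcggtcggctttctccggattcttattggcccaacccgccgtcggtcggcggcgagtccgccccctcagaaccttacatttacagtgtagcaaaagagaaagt
DUSP6, chr12:89352502-89352751, minus strand: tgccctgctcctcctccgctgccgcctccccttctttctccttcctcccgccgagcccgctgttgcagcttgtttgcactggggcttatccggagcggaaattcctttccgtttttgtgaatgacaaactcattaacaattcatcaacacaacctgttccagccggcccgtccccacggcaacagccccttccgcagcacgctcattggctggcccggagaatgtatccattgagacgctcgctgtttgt

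DUSP1 held 1 full CRE, whose first base lay 125 bases before the start, and TATAAA at 30 bases before it. DUSP8 held 2 full CREs, at 118 and 74 bases before the start. None of the other 8 entries held a full CRE or a half-site. Of all 35116 entries of the table, 1.65% held a CRE in this window, 0.0541% held 2 or more, 21.2% held a half-site and 10.7% held TATAAA. Each full CRE contains 2 overlapping half-sites, 1 per strand, and matches on both strands were counted. The EGR motif GCGNGGGCG, present in 8.41% of entries, was found 2 times before DUSP2 and 1 time before DUSP16. The AP-1 motif TGANTCA (6.57% of entries), the ATF4-type motif TGATGNAA (3.14%) and the CArG box that serum response factor binds (1.16%) were found in no member entry. DUSP4 and DUSP5, with no entry, were not searched. A match describes letters only, and no binding was measured here.

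**Figure D1:**
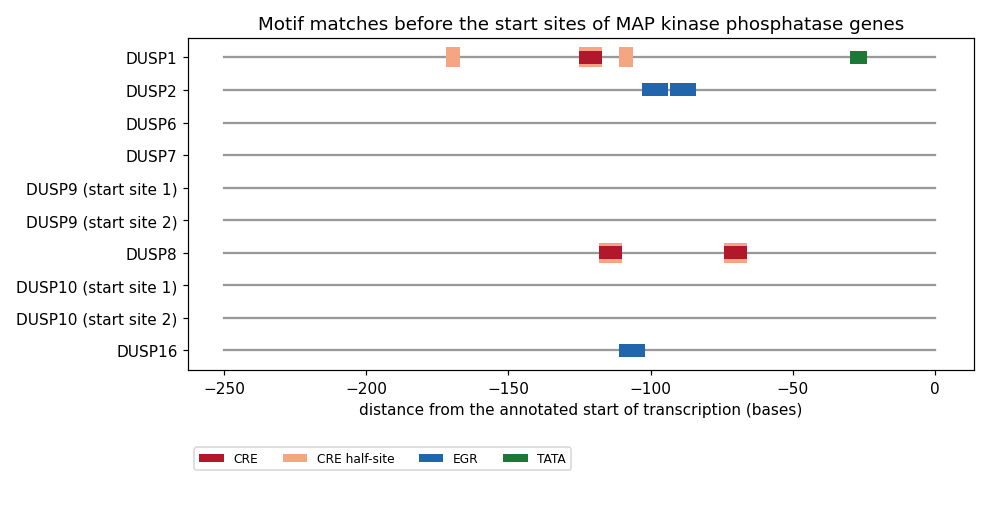
Motif matches in the 250 bases before the annotated start of each member entry (x axis, bases from the start; 1 line per entry, boxes at the matches). Of the members with an entry, only DUSP1 and DUSP8 hold a full CRE.

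The members differ widely in gene structure, which sets what the deposited unit means for each. RPKM is reads per kilobase of gene, scaled to library size, and for these genes the length behind it was 96.59% to 114.7% of the whole genomic span, introns included. Spans ran from 2272 bp for DUSP2 and 3100 bp for DUSP1 to 40666 bp for DUSP10 and 89582 bp for DUSP16, with a median of 11232 bp against 17908 bp over the 6496 annotated genes tested at 2 h. The members had 3 to 7 exons in the canonical transcript. Levels of different genes are therefore compared on the same scale with the summed exon length in place of the span, called exon RPKM here. The exon length covers every transcript in the annotation, and the share of reads that fell in introns is not known.

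In exon RPKM, DUSP4 was highest in DMSO-treated cells at 22.5 ± 6.97 (SD, n = 3), followed by DUSP1 at 12.9 ± 8.27 and DUSP6 at 12.2 ± 0.215. The ranges of DUSP4 and DUSP1, and of DUSP1 and DUSP6, overlapped. DUSP5 at 9.91 and DUSP7 at 7.44 came next with overlapping ranges, then DUSP16 at 4.16 and DUSP10 at 2.53. DUSP8 (0.316), DUSP2 (0.236) and DUSP9 (0.067) were lowest. In untreated cells the order was DUSP1, DUSP5, DUSP4, DUSP6, DUSP7, DUSP16, DUSP10, DUSP8, from 22.7 to 1.04 with no overlap between neighbours, and DUSP9 and DUSP2 overlapped at 0.145 and 0.143. After 2 h of merbarone DUSP1 stood at 90.4 ± 19.7 (SD, n = 2), above DUSP5 at 16.8 ± 3.96, and DUSP10 at 8.75 stood above DUSP7 and DUSP6. On the deposited RPKM scale DUSP7, not DUSP5, came second to DUSP1 in untreated cells (overlapping DUSP6) and at 2 h. DUSP8 stood above DUSP10 at 2 h on that scale. There DUSP10, at 0.607 RPKM, lay below DUSP7 at 5.55 and DUSP6 at 3.69 RPKM, the reverse of the order in exon RPKM.

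**Figure D2:**
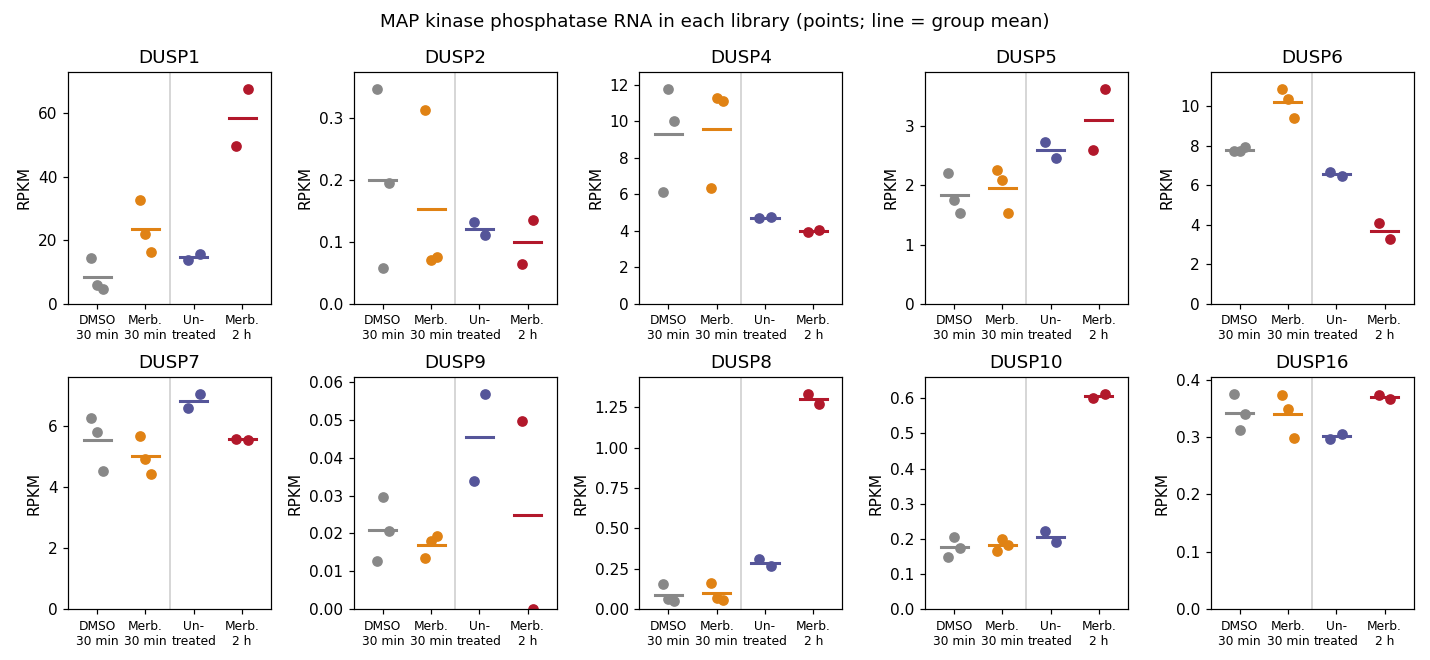
RPKM (y axis, linear, from 0, own scale per gene) of the 10 members in each of the 10 libraries; points are libraries, lines are group means, and the vertical line parts the experiments. DUSP1 lies above its control in both experiments, DUSP6 lies above it at 30 min and below it at 2 h, and DUSP8 and DUSP10 lie above it at 2 h.

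At 30 min no member passed the test without the replicate block, and with it DUSP1 alone passed, as higher. DUSP1 (ENSG00000120129; GRCh37 chromosome 5, 172195099 to 172198198, minus strand) encodes a nuclear phosphatase of JNK, p38 and ERK and is a classic immediate-early gene. It measured 14.5, 5.83 and 4.69 RPKM in DMSO replicates 1, 2 and 3 and 32.5, 21.8 and 16.3 RPKM in the merbarone replicates, from 556 to 3400 reads. The highest control library lay below the lowest treated one. Each treated library exceeded the control of its own number, by 2.24-, 3.75- and 3.47-fold. The means were 8.34 ± 5.36 and 23.5 ± 8.25 RPKM (SD, n = 3), a 2.82-fold difference.

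In limma on log2(RPKM + 1), the log2 fold change of DUSP1 at 30 min was 1.49 ± 0.42 (SE), with an unadjusted p of 0.0110 and an adjusted p of 1. That fit called 1 of 6500 genes, 0.0154%, and none of the 5 members it tested; 2 of them, DUSP1 and DUSP6, had an unadjusted p under 0.05, both higher. Same-numbered libraries deviated together, but the labels give only replicate numbers, so pairing is not established. The results at 2 h are given without a block. With the replicate number as a block at 30 min, the SE of DUSP1 was 0.12 and limma's adjusted p 0.0188. That fit called 8 genes, 0.123%, of which 7 were higher (0.108%) and 1 lower (0.0154%). Voom, which fits limma to the recovered reads, called 0 of 9 members without the block, where the same 2 had an unadjusted p under 0.05 and 1 of 14012 genes, 0.00714%, was called. With the block voom called 1 member, DUSP1 (adjusted p 5.18e-04), and 0.0928% of all genes. In blocked limma the adjusted p was 0.119 without the pair of replicate 3, so the call was lost. Without the pair of replicate 1 or 2 it was 4.3e-05 and 0.00289. These fits were added after the data were seen. With fewer libraries, more of their spread is borrowed from other genes. The share of all genes they called was not recorded, so they do not measure how firm the call is.

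DUSP6 (ENSG00000139318; chromosome 12, 89741012 to 89746278, minus strand) encodes the cytoplasmic ERK phosphatase whose transcription ERK itself drives. It measured 7.71, 7.73 and 7.96 RPKM in DMSO and 10.9, 10.4 and 9.40 RPKM after 30 min of merbarone. All treated libraries lay above all controls, and the fold by pair was 1.41, 1.34 and 1.18. DUSP1 and DUSP6 were the 2 of 5 tested members whose treated range lay above the control range; over all genes tested this held for 0.877%. The log2 fold change of DUSP6 was 0.35 (95% interval 0.19 to 0.50), with a limma adjusted p of 1, of 0.344 with the block, and of 0.0739 in voom with the block, so it did not pass. In blocked voom it passed without the pair of replicate 2 or 3 (adjusted p 0.0498 and 0.00698) but not without replicate 1 (0.068). In blocked limma it did not pass with any pair left out (0.219 without replicate 2 and 0.146 without replicate 3). These smaller fits were also added after the data were seen, and the share of all genes they called was not recorded.

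No other member passed at 30 min, with or without the block. DUSP4 (ENSG00000120875; chromosome 8), a nuclear phosphatase, measured 6.14, 11.8 and 10 RPKM in DMSO and 6.32, 11.3 and 11.1 RPKM after merbarone, with replicate 1 low in both groups. Its log2 fold change was 0.04 (95% interval -0.65 to 0.72). DUSP5 (ENSG00000138166; chromosome 10, 112257665 to 112271291, plus strand), which inactivates ERK in the nucleus, had 0.06 (-0.24 to 0.36). DUSP7 (ENSG00000164086; chromosome 3, 52082935 to 52090587, minus strand), a cytoplasmic ERK phosphatase, had -0.12 (-0.42 to 0.18). It was lower in 3 of 3 pairs. With the block the intervals narrowed to -0.08 to 0.15 for DUSP4, -0.04 to 0.16 for DUSP5 and -0.23 to -0.01 for DUSP7, whose unadjusted p was 0.0367 and limma adjusted p 1.

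Members below a mean of 1 RPKM did not enter the limma fit and are given here by voom. DUSP8 (ENSG00000184545; chromosome 11, 1575281 to 1593501, minus strand) measured 0.153, 0.0601 and 0.0497 RPKM in DMSO and 0.164, 0.0701 and 0.0559 RPKM after 30 min of merbarone, from 33 to 99 reads. Replicate 1 was again high in both groups, and the 2 ranges overlapped, while the treated library was higher in 3 of 3 pairs, by 1.07-, 1.17- and 1.12-fold. The blocked voom interval of its log2 fold change ran from -0.18 to 0.48. The log2 fold changes of DUSP8, DUSP10 and DUSP16 were 0.20 (95% interval -1.08 to 1.49), 0.06 (-0.30 to 0.42) and -0.01 (-0.28 to 0.26). Each had an adjusted p of 1.

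After 2 h of merbarone, voom called 3 of the 8 members it tested higher and 1 lower. Over all genes voom called 7.94% higher and 6.09% lower. DUSP1 measured 13.6 and 15.8 RPKM in untreated cells and 49.5 and 67.6 RPKM in treated cells. The treated level was 3.97-fold the untreated one, with no overlap (treated above control for 22.5% of the genes tested), and rose from 14.7 ± 1.54 to 58.5 ± 12.8 RPKM (SD, n = 2). The log2 fold change was 1.91 ± 0.15 (SE), with a limma adjusted p of 9.32e-05. Limma called 866 of 6620 genes, 13.1%, of which 5.98% of all tested were higher and 7.10% lower. Of the 5 members tested, 1 was called higher and 1 lower, with a median log2 fold change of -0.20 over the 5 against -0.05 over all genes tested.

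DUSP6 was the member called lower. It measured 6.66 and 6.45 RPKM in untreated cells and 4.11 and 3.27 RPKM after 2 h, from 258 to 536 reads. Both treated libraries lay below both controls, as for 39.0% of the genes tested by limma. The mean fell from 6.55 ± 0.147 to 3.69 ± 0.590 RPKM (SD, n = 2), a ratio of 0.563. The log2 fold change was -0.69 ± 0.10 (SE), with a limma adjusted p of 0.00395. DUSP1 and DUSP6 passed in each of the 4 limma fits that left out 1 library, which leave 1 group with a lone library, assumed to vary like the other group. With no filter on low values, where 53 of 16810 genes were called, their adjusted p-values were 0.0793 and 0.105.

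The pair of inducible JNK and p38 phosphatase genes rose at 2 h from low levels. DUSP8 measured 0.311 and 0.267 RPKM in untreated cells and 1.33 and 1.27 RPKM after merbarone, which is 74 and 57 reads against 326 and 296. The treated mean was 4.51-fold the untreated one, with no overlap. DUSP10 (ENSG00000143507; chromosome 1, 221874766 to 221915431, minus strand) measured 0.221 and 0.191 RPKM in untreated cells and 0.602 and 0.611 RPKM after merbarone, from 93 to 336 reads. Its treated mean was 2.95-fold the untreated one, again with no overlap. Treated libraries lay above the controls in the same way for 28.8% of the genes that voom tested.

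Voom on recovered reads put the log2 change of DUSP8 at 2.16 ± 0.19 (SE; adjusted p 9.22e-08). For DUSP10 it was 1.55 ± 0.17 (adjusted p 1.88e-06). That fit called 1886 of 13440 genes, 14.0%, with 7.94% of all tested higher and 6.09% lower. Among the 8 members it tested, 3 were higher (DUSP1, DUSP8 and DUSP10) and 1 lower (DUSP6), with a median log2 fold change of 0.26 against 0.00 over all genes tested. With limma on genes of at least 0.1 RPKM, the adjusted p-values of DUSP8 and DUSP10 were 4.91e-04 and 0.00176. With no filter they were 0.0472 and 0.0502, so DUSP10 did not pass there. Both passed in voom when any 1 of the 4 libraries was left out, again with a lone library in 1 group.

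DUSP16 (ENSG00000111266; chromosome 12, 12626216 to 12715797, minus strand), also a JNK and p38 phosphatase, measured 0.297 and 0.306 RPKM in untreated cells and 0.373 and 0.366 RPKM after 2 h. Its treated range also lay above the control range, as for 28.8% of the genes that voom tested. Its log2 fold change of 0.29 (95% interval 0.02 to 0.57) had a voom adjusted p of 0.148. DUSP4 measured 4.68 and 4.73 RPKM untreated and 3.92 and 4.04 RPKM treated, and DUSP7 6.57 and 7.02 RPKM untreated and 5.56 and 5.53 RPKM treated. Treated libraries lay below the controls for both, as for 39.0% of the genes tested by limma. Their log2 fold changes were -0.20 (95% interval -0.38 to -0.01) and -0.25 (-0.45 to -0.05), with limma adjusted p-values of 0.14 and 0.0943. DUSP7 passed without untreated replicate 1, a fit that leaves a lone control library and passed far more genes than the full fit. That pass is therefore not particular to DUSP7. DUSP5 measured 2.74 and 2.46 RPKM untreated and 2.59 and 3.62 RPKM treated, with overlapping ranges and a log2 fold change of 0.18 (-0.09 to 0.45).

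DUSP2 and DUSP9 were too low to follow. DUSP2 (ENSG00000158050; chromosome 2, 96808908 to 96811179, minus strand), best known from activated lymphocytes, had 4 to 24 reads per library in the 30 min experiment and 2 to 4 in the 2 h experiment. DUSP9 (ENSG00000130829; chromosome X, 152907946 to 152916781, plus strand) had 0 to 8 reads in any library. In the merbarone 2 h library listed at 0, a count of 0 allows up to 3 reads, or 0.0260 RPKM, by counting error only. No difference was detectable for DUSP9 at this depth, and for DUSP2 the voom interval at 30 min ran from -2.27 to 1.46 on the log2 scale.

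**Figure D3:**
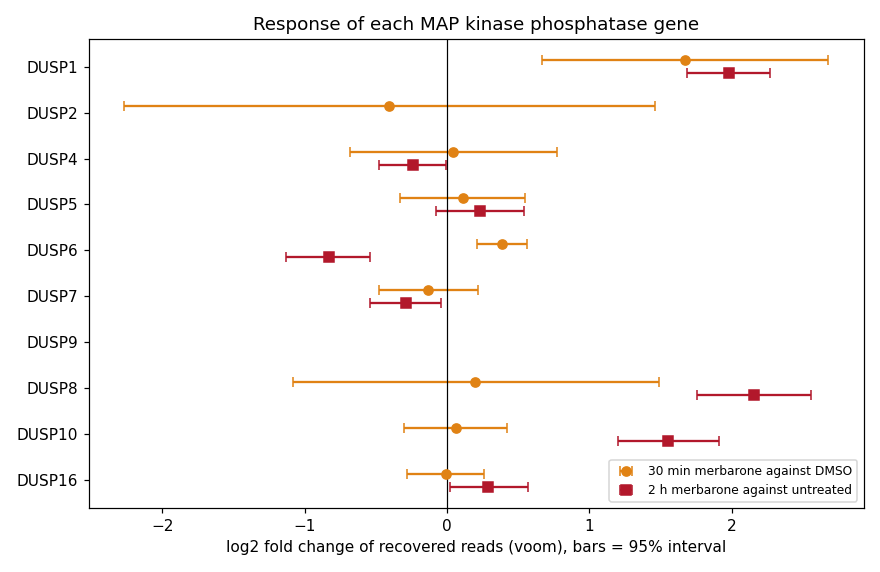
Log2 fold change of recovered reads by voom (x axis) for each member at 30 min (circles) and 2 h (squares), with 95% intervals that are not adjusted for the number of genes. At 2 h DUSP1, DUSP8 and DUSP10 lie at 1.55 to 2.16 and DUSP6 at -0.83; DUSP9, and DUSP2 at 2 h, had too few reads for the fit.

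Summed by role in exon RPKM, the 4 nuclear members went from 45.6 ± 4.95 in DMSO to 70.3 ± 9.07 at 30 min (SD, n = 3). In the 2 h experiment they went from 48.4 ± 1.41 to 117 ± 23.9 (SD, n = 2). Most of that sum was DUSP1 at 2 h, at 90.4. The 3 cytoplasmic ERK phosphatases measured 19.7 ± 0.993 and 22.8 ± 1.99 in the 30 min experiment and 19.6 ± 0.254 and 13.3 ± 1.06 in the 2 h experiment. The 3 JNK and p38 phosphatases measured 7 ± 0.212 and 7.11 ± 0.589 at 30 min, and 7.67 ± 0.336 and 17.9 ± 0.122 at 2 h. These sums carry no test of their own.

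Whether the effect differed between the experiments was asked by a limma contrast over all 10 libraries, in which the duration, the vehicle and the experiment cannot be told apart. It called 107 of 6558 genes, 1.63% (1.27% higher and 0.366% lower, so that 77.6% of the calls were higher, and 88.6% after quantile normalization), and 1 of the 5 members tested, DUSP6. The effect on DUSP6 was lower at 2 h than at 30 min by 1.04 ± 0.12 on the log2 scale (difference -1.04, SE 0.12, adjusted p 0.00323). The direction and the call held in each of 20 alternatives, with adjusted p-values from 5.1e-05 to 0.0275. DUSP1 had a difference of 0.42 (95% interval -0.86 to 1.70, adjusted p 0.781), so these data do not part its 2 effects. In voom, where 66 of 13900 genes, 0.475%, were called and 0.439% were higher, the difference was 1.49 ± 0.23 for DUSP10 (adjusted p 0.0294) and 1.95 ± 0.62 for DUSP8 (0.264). With the replicate block, where 15.1% of genes were called and 7.93% were higher, voom called both (9.53e-05 and 5.13e-05). Limma on genes of at least 0.1 RPKM called both, each with an adjusted p of 9.63e-04. With a pseudocount of 0.1 RPKM DUSP8 did not pass (0.0699). The 30 min means of DUSP8 were 0.0877 and 0.0968 RPKM, and log2(RPKM + 1) compresses both the effect and the spread of values that low.

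The 2 controls themselves were unlike for some members, which was not tested. DUSP4 was at 6.14 to 11.8 RPKM in DMSO and 4.68 to 4.73 RPKM untreated, DUSP8 at 0.0497 to 0.153 and 0.267 to 0.311 RPKM. Vehicle and experiment cannot be told apart there.

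The genes most like the 2 members called by limma were sought over the 10 libraries. The measure was the root mean square difference of log2(RPKM + 1), each library taken relative to the control mean of its experiment. For DUSP1 the closest of 6162 other genes were JUNB (0.432), JUN (0.578) and KLF2 (0.730), against a median of 1.28. JUNB went from 10.2 to 26.4 RPKM at 30 min and from 11.1 to 61.3 RPKM at 2 h, with effects of 1.29 and 2.4 on the log2 scale. JUN and KLF2 had effects of 0.60 and 0.36 at 30 min and 1.82 and 2.38 at 2 h. None of the 3 passed in limma at 30 min. All 3 encode inducible transcription factors, and JUNB overlaps another gene of the tables, so its reads are uncertain. For DUSP6 the closest were TOMM6 (0.189), SERTAD3 (0.195) and ENSG00000267950 (0.196), against a median of 0.367. Their effects at 30 min were 0.09, 0.04 and 0.21, below the 0.35 of DUSP6, and -0.51, -0.75 and -0.61 at 2 h. These genes did not pass at 30 min either. TOMM6 overlaps 2 other genes of the tables.

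The rest of the MAP kinase pathway was described from lists of the kinases and of the other phosphatases. At 30 min limma called no gene of the 6 lists, and none had an unadjusted p under 0.05, among 7 MAP kinases, 3 MAP kinase kinases, 8 MAP kinase kinase kinases, 5 MAP kinase-activated kinases, 5 atypical DUSPs and 3 other MAP kinase phosphatases tested. Over all genes it called 0.0154%, and 24 of 6500 (0.369%) had an unadjusted p under 0.05, so a count of 0 among 31 genes is near the background. The log2 fold changes of the 31 lay between -0.09 and 0.05. Voom, which tested 68 of the genes, also called 0, with 0 at an unadjusted p under 0.05.

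At 2 h limma called 0 of 7 MAP kinases (0 with an unadjusted p under 0.05, by limma or voom), with a median log2 fold change of -0.10 against -0.05 over all genes. It called 0 of 3 MAP kinase kinases, 0 of 8 MAP kinase kinase kinases and 0 of 5 MAP kinase-activated kinases, which had 1, 3 and 3 genes at an unadjusted p under 0.05. Over the 6 lists it called 1 of 32 genes (3.12%), against 13.1% of all genes, and 31.2% had an unadjusted p under 0.05, against 31.3% of all genes. Of 6 atypical DUSPs it called DUSP23, lower by -0.52 ± 0.12 (SE, adjusted p 0.0282), which voom did not call (adjusted p 0.0521). Of 3 other MAP kinase phosphatases tested it called 0, and 0 had an unadjusted p under 0.05. Voom called 5 of the 67 genes of these lists that it tested, 7.46%, against 14.0% of all genes. PPM1D, a p53-induced phosphatase that acts on p38, was higher by 0.78 (adjusted p 0.00205), and MAP3K2, a kinase upstream of ERK and JNK, by 0.56 (0.00522). MAP3K13, MAPKAPK2 and MAPKAPK3 were lower by 0.34, 0.34 and 0.45 (log2 fold changes -0.34, -0.34 and -0.45, adjusted p-values 0.0293, 0.0409 and 0.0282). These 5 were named after their values were seen.

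**Figure D4:**
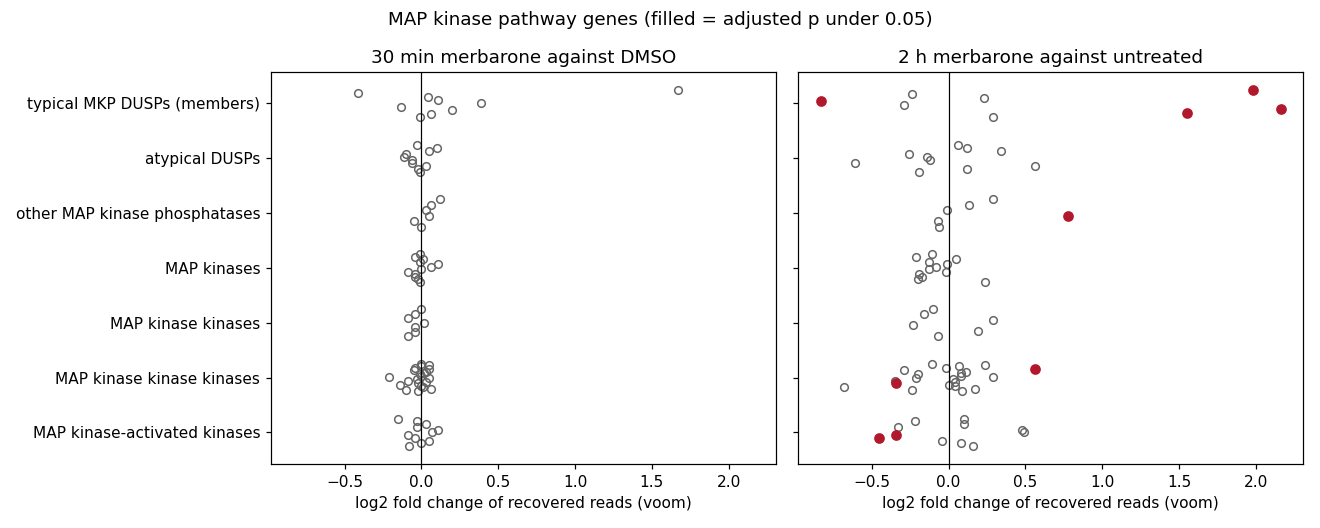
Log2 fold change of recovered reads by voom (x axis) for the members and 6 lists of MAP kinase pathway genes (rows), at 30 min and 2 h; each point is a gene and filled points have an adjusted p under 0.05. At 2 h the members reach 2.16, while no other gene shown exceeds 0.78.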

How the data were processed

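The deposited tables, 1 for each library, give RPKM by Ensembl gene as the authors computed it. They named hg19/GRCh37, Bowtie 1.2.0, DESeq2, edgeR and deepTools 2.4.1 in the submitters' processing notes, with no role for each; the read counter and annotation are not given in the sources used here. Whole reads were recovered from the RPKM steps for 17680 genes, 100% of those above 0 (tolerance 0.001 reads). On simulated reads the recovery was exact for 98.2% of 17063 genes at 30 min and 92.3% of 16421 genes at 2 h. The simulated recovery took each experiment on its own, while the real one took all libraries together, so these shares do not describe it directly. Lengths and GRCh37 positions come from GENCODE, and no member overlaps a gene of the tables. The 4 members DUSP1, DUSP6, DUSP8 and DUSP16 each overlap a long noncoding RNA on the other strand. Its reads cannot be told apart from theirs if strand was not used in counting.

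Tests used limma 3.58.1 in R 4.3.3 on log2(RPKM + 1), with eBayes(trend=TRUE), a mean of at least 1 RPKM, Benjamini-Hochberg adjustment over all genes tested, a threshold of 0.05, and the libraries of 1 experiment. Fold changes on that scale understate those of low genes. Voom used recovered reads (mean of at least 10). On simulated data limma called 54 of 54 changed genes of log2 size 1 at 30 min (6468 genes tested). At 2 h it called 66 of 66 (6607 genes tested). It also called 4 and 21 unchanged genes. The simulated libraries were independent, with the same low dispersion for every gene and no replicate effect. Only genes with many reads were changed. These counts therefore do not give the share of changes that would be detected in the real libraries. Same-numbered 30 min libraries had deviations correlated at 0.925, 0.646 and 0.605, each above 0.1, which was taken as pairing. Differently numbered ones ran from -0.716 to 0.365, also above 0.1 for DMSO 2 with merbarone 3 (0.365) and DMSO 3 with merbarone 2 (0.139). The 2 h libraries of the same number, at 0.3, passed this rule too. The rule therefore does not establish pairing, and the labels give only replicate numbers. The 10 members were named throughout; from the lists, genes called by limma (DUSP23 and OTX2); beside each called member, the 3 genes of smallest difference. The members and lists were chosen with earlier results of these data known. Python 3.11.15, NumPy 2.4.6, pandas 2.3.3 and matplotlib 3.10.9 were used.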

Additional observations from a re-analysis of the deposited data

Results flagged for a closer look

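The response of DUSP6 differed between the experiments by a tested contrast: its log2 effect was 0.35 at 30 min of merbarone and -0.69 at 2 h, a difference of -1.04 with a limma adjusted p of 0.00323. The 30 min effect itself did not pass (limma adjusted p 1, and 0.344 with the replicate block). All 3 treated libraries were above the DMSO libraries, as for 0.877% of the genes tested, and both 2 h libraries were below the untreated ones, as for 39.0%. The time, the vehicle and the experiment cannot be told apart in that contrast.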

How the results depend on the processing

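Of the genes called at 30 min (1), no filter and the lower filter with a pseudocount of 0.1 RPKM left 0, median scaling, quantile normalization and all 10 libraries in 1 fit gave 2 each, the replicate block gave 8, voom with the block 13, and leaving out a library 0 to 2. Of those called at 2 h (866), no filter left 53, voom gave 1886, the replicate block 2129 and voom with the block 3487. The correlation of same-numbered libraries at 2 h was 0.300, and those 2 blocked fits had 1 residual degree of freedom; the block added DUSP7 (adjusted p 0.0239) to the members called there. Leaving out a library at 2 h gave 328 to 2464: 2464 without untreated replicate 1, 1311 without untreated replicate 2, 328 without merbarone replicate 1 and 398 without merbarone replicate 2. For the difference of the effects (107), no filter gave 361, a mean of at least 0.1 RPKM 205, voom 66, the replicate block 1255, voom with the block 2100, and leaving out a library 38 to 86, with 62 without 30 min merbarone replicate 2 or 3, 47 without untreated replicate 2, 42 without 2 h merbarone replicate 1 and 38 without replicate 2. The cause of these shifts was not tested. The share of higher calls at 2 h, 45.7%, came to 52.4% after median scaling and 53.8% after quantile normalization; for the difference of the effects these 3 shares were 77.6%, 83.6% and 88.6%. Over all alternatives the share ran from 36.2% to 90.6% at 2 h and from 40.2%, with the replicate block, to 96.8% for the difference. No member's called effect changed sign under any alternative. Leaving out libraries in voom, and pairs in the blocked fits, was added after seeing the data. Depth limited DUSP2 and DUSP9, and with 2 libraries per group at 2 h the spread rests mainly on other genes.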
